A study of Mus musculus with 4 samples.

Results

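The cells described here are Kupffer cells, macrophages that reside in the liver sinusoids, whose droplets held an unusually large share of transcripts from the mitochondrial genome. Of 15383 barcodes in 4 single-cell RNA sequencing libraries of mouse liver leukocytes, 1579 (10.3%) belonged to this class. Members were chosen by their mitochondrial share and by the detection of marker genes, both read from the same counts. A barcode was a member when it had at least 500 UMIs (unique molecular identifiers, each standing for 1 captured RNA molecule) and at least 200 genes, when 10% to 20% of its UMIs came from the 13 mitochondrially encoded mRNAs, and when it carried at least 3 of the 6 Kupffer genes Clec4f, Timd4, Vsig4, Cd5l, Marco and Folr2. Barcodes with a UMI of Cd79a, Cd3e or Cd3g, or with 3 or more of 7 cell cycle genes, were left out. The members are set against 4783 Kupffer barcodes chosen in the same way with under 10% mitochondrial UMIs. Below, the 2 classes are called high-mitochondrial and low-mitochondrial Kupffer barcodes.

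All cells came from wild-type C57BL/6 mice, as CD45+ leukocytes enriched with magnetic beads after collagenase digestion and a Percoll gradient. Exercise mice (2 libraries) ran on a motorized treadmill at 12.5 m/min, 60 min per day and 5 days per week for 4 weeks, and sedentary mice (2 libraries) spent the same sessions on a treadmill that stood still. Alanine aminotransferase in serum, a marker of hepatocyte injury, reached 26 and 59 U/L (exercise replicates 1 and 2), against 33 and 56 U/L (sedentary replicates 1 and 2). Whether replicates are separate animals is not stated in the labels, so p-values refer to these libraries only. The labels used here give neither age nor sex. The series text calls the libraries single nuclei, whereas the protocols describe whole cells.

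Kupffer cells line the hepatic sinusoids, take up particles, aged red cells and lipoproteins from portal blood, and recycle the iron of heme. Mitochondrial mRNAs are made and kept inside the organelle, while mRNAs of nuclear genes lie in the cytosol, on the endoplasmic reticulum or in the nucleus. The share of mitochondrial UMIs is used in single-cell work as a quality measure, and barcodes above a limit are often left out. It depends on the number of mitochondria as well as on how much other RNA was captured, and the number of cells and RNA per cell behind a share cannot be told apart from a sum of UMIs.

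The 4 libraries held 10050976 to 14849778 UMIs, of which 4.76% to 6.19% were mitochondrial, and no barcode had under 931 UMIs. Between any 2 libraries, 11 to 31 barcode sequences were shared, and 1 among the members. Doublet scoring marked 479 barcodes (3.11%), of which 22 were members. High-mitochondrial barcodes were found mainly among Kupffer barcodes. On average 25.4 ± 6.80% of the Kupffer barcodes up to 20% mitochondrial UMIs were high-mitochondrial, against 2.79 ± 0.363% of all other barcodes (SD over 4 libraries), a difference of 22.6 percentage points that was positive in 4 of 4 libraries (exact two-sided sign-flip permutation test, p = 0.125, the smallest that 4 pairs allow). A further 266 Kupffer barcodes had over 20% mitochondrial UMIs and are not members.

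The members were fewer in the exercise libraries. High-mitochondrial barcodes made up 23.5% (exact binomial 95% interval 21.2 to 25.9) and 17.5% (15.9 to 19.3) of the Kupffer barcodes in exercise replicates 1 and 2, against 33.9% (31.5 to 36.4) and 26.5% (24.3 to 28.7) in sedentary replicates 1 and 2. These intervals cover counting error only. As counts, 311 of 1323 and 348 of 1983 Kupffer barcodes were members in the exercise libraries, against 506 of 1492 and 414 of 1564 in the sedentary libraries. The groups did not overlap, and the means were 20.5 ± 4.21% in exercise and 30.2 ± 5.26% in sedentary libraries (SD, n = 2 each), a difference of −9.66 percentage points. An exact two-sided permutation test gave p = 0.333, which is the smallest p that 2 against 2 libraries allow, so the difference cannot pass a threshold in this design. Among the other barcodes the same share was 3.14% and 2.73% in exercise libraries, against 2.999% and 2.31% in sedentary libraries, where the groups overlapped. Within the members the median mitochondrial share was alike in all libraries, 13.03% and 12.4% in exercise and 13.2% and 12.8% in sedentary replicates 1 and 2, and 215 and 276 members of the exercise libraries, against 352 and 307 of the sedentary libraries, lay between 10% and 15%.

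**Figure D1:**
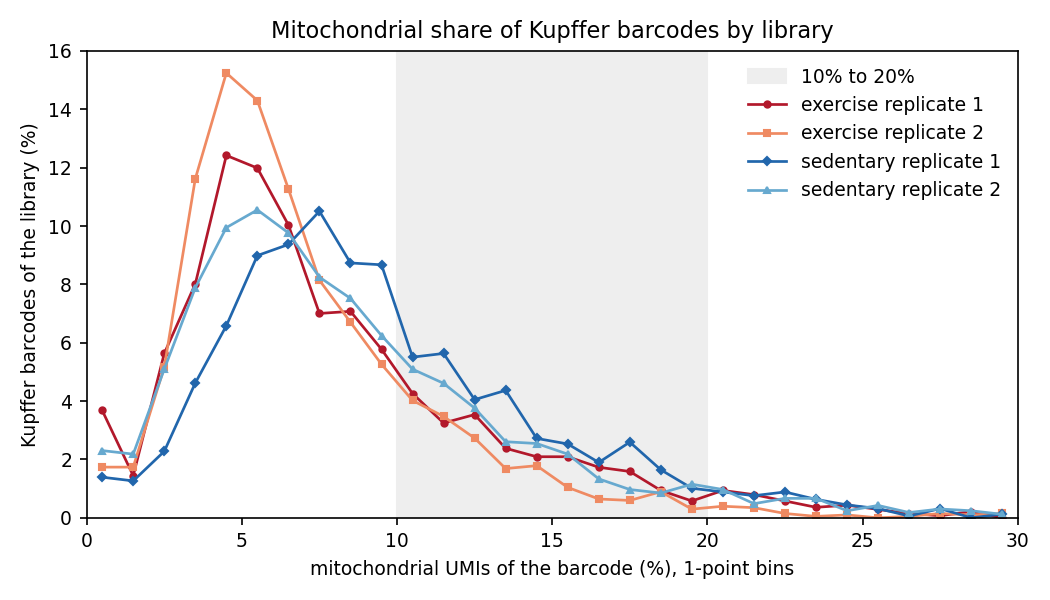
Distribution of the mitochondrial share (x axis, percent of a barcode's UMIs in bins of 1 point) over the Kupffer barcodes of each library (y axis, percent of that library's Kupffer barcodes), with the range of the members shaded. The distribution has 1 main peak and a long right tail with no gap at 10% or 20%, and sedentary replicate 1 has its peak farthest to the right.

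The genes of the rule were read first. The members carried a median of 5 of the 6 Kupffer genes in every library, as did the low-mitochondrial barcodes. Because these genes chose the barcodes, their levels are a description with no test. Levels are given in CPM, UMIs per 1000000 non-mitochondrial UMIs, with the TMM scaling described below. Clec4f, a C-type lectin restricted to Kupffer cells in mice, stood at 3103, 3423, 2936 and 3426 CPM in the members of exercise replicates 1 and 2 and sedentary replicates 1 and 2. It stood at 4087, 4375, 4022 and 4378 in the low-mitochondrial barcodes of the same libraries. Marco, a scavenger receptor, stood at 1342, 1008, 820.5 and 954 CPM in the members, against 584, 543, 434 and 704 in the low-mitochondrial barcodes. Clec4f was thus lower and Marco higher among the members in 4 of 4 libraries. Timd4, which binds phosphatidylserine on dying cells, and Folr2, a folate receptor, were also lower in 4 of 4 libraries, while Cd5l and the complement receptor Vsig4 were higher in 2 of 4. Since 3 of these genes were required, their presence does not test the name Kupffer, which here stands for the rule.

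Members yielded fewer RNA molecules than low-mitochondrial Kupffer barcodes. The median barcode held 1688, 1697, 1630.5 and 1733 UMIs among the members, against 3184, 3244, 2394 and 3142 in the low-mitochondrial class, a ratio of 0.568 (0.523 to 0.681 over the 4 libraries). The median mitochondrial UMIs were 227.5 to 236.5 in the members and 163 to 185.5 in the low-mitochondrial barcodes, a ratio of 1.29, while the median non-mitochondrial UMIs were 1403 to 1496.5 and 2253 to 3047, a ratio of 0.523. The members thus differed more in their non-mitochondrial than in their mitochondrial UMIs. All of these quantities enter the share that chose the members and are given with no test. Members also had fewer detected genes, a median of 864.5 to 898.5 against 1134.5 to 1376. When each barcode was thinned to 1000 non-mitochondrial UMIs, which left out 12 to 96 members and 0 to 57 low-mitochondrial barcodes per library, the members showed slightly more genes, 639 to 652 against 598 to 613 (a ratio of 1.07, higher in 4 of 4 libraries). The makeup of the mitochondrial mRNAs themselves hardly differed: mt-Co1, a cytochrome c oxidase subunit, took 20.3% of them in the members and 19.7% in the low-mitochondrial class, and mt-Atp6, a subunit of ATP synthase, took 21.2% and 21.8%.

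The difference in nuclear-encoded RNA was very uneven between genes when UMIs per barcode were averaged within each library. Sdc3, which encodes the heparan sulfate proteoglycan syndecan-3, had 7.36 ± 0.662 in the high-mitochondrial and 7.28 ± 1.06 in the low-mitochondrial barcodes (mean ± SD over 4 libraries), with a ratio between 0.960 and 1.11. Likewise Hmox1, the heme-degrading enzyme heme oxygenase 1, had 4.54 ± 0.696 in the high-mitochondrial and 4.31 ± 0.764 in the low-mitochondrial barcodes, and Psap, the precursor of the saposins that assist lysosomal sphingolipid breakdown, had 10.8 ± 1.59 in the high-mitochondrial and 11.1 ± 2.16 in the low-mitochondrial barcodes. For these transcripts the members held as many UMIs per barcode as the low-mitochondrial class, within the spread between libraries. Abca1, which exports cholesterol, Vcam1, an adhesion molecule, and Marco behaved alike: Abca1 had 0.814 ± 0.185 in the high-mitochondrial and 0.807 ± 0.159 in the low-mitochondrial barcodes, Vcam1 had 1.41 ± 0.563 in the high-mitochondrial and 1.37 ± 0.654 in the low-mitochondrial barcodes and Marco had 1.82 ± 0.39 in the high-mitochondrial and 1.71 ± 0.453 in the low-mitochondrial barcodes. Members held more UMIs of Itgal, the integrin alpha L chain, and of BC005537 per barcode in 4 of 4 libraries, with ratios of 1.00 to 1.19 and 1.10 to 1.38.

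Other transcripts were much scarcer in the same barcodes. Apoe, the apolipoprotein E made by macrophages, had 17.6 ± 1.27 in the high-mitochondrial and 63.3 ± 7.59 in the low-mitochondrial barcodes. The ferritin light chain gene Ftl1 had 13.1 ± 1.44 in the high-mitochondrial and 40.3 ± 7.08 in the low-mitochondrial barcodes, and the C1q chain gene C1qb had 5.71 ± 0.508 in the high-mitochondrial and 17.8 ± 3.395 in the low-mitochondrial barcodes. The 48 cytosolic ribosomal protein genes summed to 104 ± 9.73 in the high-mitochondrial and 309.8 ± 51.3 in the low-mitochondrial barcodes, with ratios between 0.267 and 0.466. The nuclear-retained RNA Malat1 had 55.4 ± 9.93 in the high-mitochondrial and 74.6 ± 14.3 in the low-mitochondrial barcodes. Clec4f had 5.704 ± 0.529 in the high-mitochondrial and 12.7 ± 1.94 in the low-mitochondrial barcodes. Mitochondrial mRNAs summed to 248 ± 5.63 in the high-mitochondrial and 185 ± 9.06 in the low-mitochondrial barcodes, higher in 4 of 4 libraries. Transcripts of 10 hepatocyte marker genes summed to 1.63 ± 1.49 in the high-mitochondrial and 1.803 ± 1.70 in the low-mitochondrial barcodes, with ratios of 0.846 to 1.13 that straddled 1. Since a barcode of the members holds fewer nuclear-encoded UMIs, a gene with the same number of UMIs per barcode in both classes is higher in CPM, which bears on every comparison that follows.

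To find which transcripts changed in proportion, UMIs were summed per library and class and the classes were compared within libraries by edgeR's quasi-likelihood test with the library as a block. Mitochondrial UMIs were left out of the totals, and the mitochondrial genes and the genes of the selection rule were not tested. Of 8652 genes tested, 1556 (18.0%) were higher and 1665 (19.2%) lower in the members at a Benjamini-Hochberg adjusted p below 0.05, 37.2% in all. Changes over 1 on the log2 scale were mostly losses, 44 higher and 398 lower. When the low-mitochondrial barcodes were matched on depth to the members (called matched depth below), 705 (11.0%) of 6407 tested genes were higher and 1015 (15.8%) lower. DESeq2 called 885 higher and 1063 lower. The p-values of this comparison need not measure the spread between libraries, as the values of Hbb-bs below show. Levels in CPM have TMM scaling, which sets the median gene near 0 (0.0047 on the log2 scale). Without that scaling the median gene was higher by 0.22 in the members, a shift that would be added to every log2 change below. Of the lists it would turn the sign of the median from below to above 0 for Kupffer genes outside the rule, mitochondrial biogenesis and turnover, complement, antioxidant genes, heat shock, B cell markers and markers of conventional dendritic cells type 1. Of the genes given below as lower it would do so for C1qa (−0.20).

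The markers given for the class were high in proportion. Sdc3 stood at 4432, 4252, 3679 and 4273 CPM in the high-mitochondrial barcodes, against 2447, 2435, 2351 and 2479 in the low-mitochondrial barcodes (log2 change 0.77 ± 0.06, adjusted p = 2.75e-12). Hmox1 had 2517, 2429, 2238 and 3079.5 CPM in the high-mitochondrial barcodes, against 1346, 1247, 1415 and 1777 in the low-mitochondrial barcodes (log2 change 0.83 ± 0.06, adjusted p = 2.15e-12). In all 4 libraries the members were above the low-mitochondrial barcodes for both genes, and the 2 classes did not overlap across libraries. Vcam1 had 544, 835, 577 and 1207 CPM in the high-mitochondrial barcodes, against 275, 462, 340.3 and 751 in the low-mitochondrial barcodes (log2 change 0.81 ± 0.07, adjusted p = 3.12e-11), and Abca1 had 434, 501, 337 and 564 CPM in the high-mitochondrial barcodes, against 252, 286, 236 and 299 in the low-mitochondrial barcodes (log2 change 0.76 ± 0.08, adjusted p = 9.95e-10). Vcam1 differed more between libraries than between classes, so its classes overlapped across libraries although it was higher in each. Without the library block its adjusted p was 0.0571. Of the 6 markers, Clec4f and Marco belong to the rule and were not tested, and all 4 tested markers were higher, against a background of 18.0%. These markers were named with results of these data known.

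**Figure D2:**
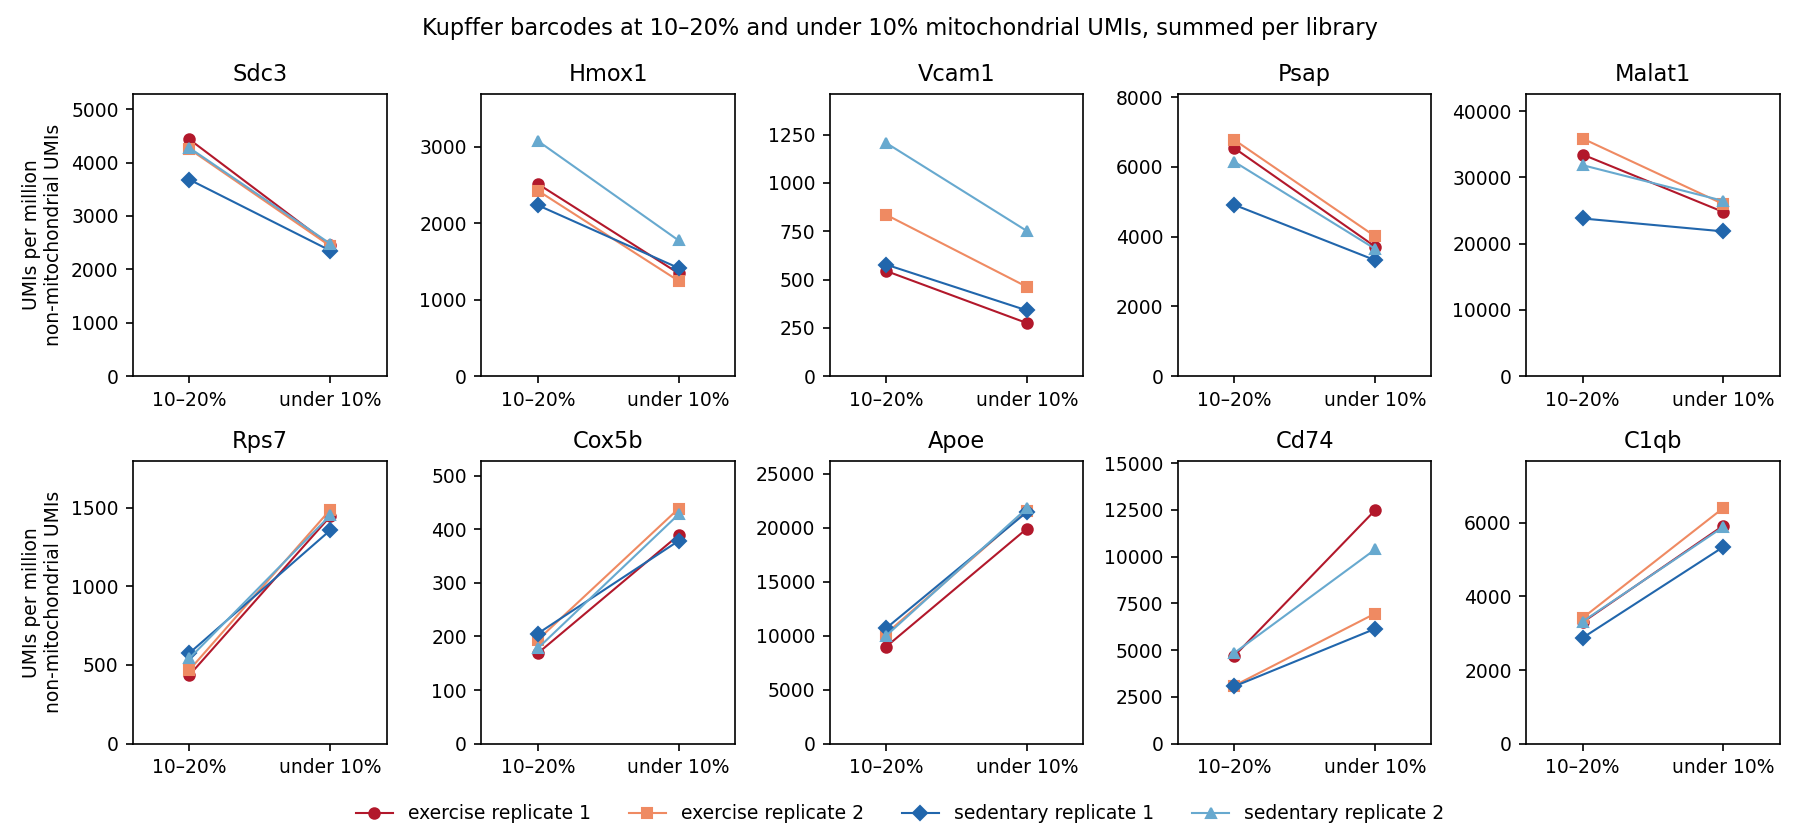
CPM, UMIs per 1000000 non-mitochondrial UMIs (y axis, TMM-scaled, from 0) of 10 genes in the Kupffer barcodes with 10% to 20% mitochondrial UMIs (left) and under 10% (right), with 1 line per library. Sdc3, Hmox1, Vcam1, Psap and Malat1 are higher and Rps7, Cox5b, Apoe, Cd74 and C1qb lower in the members in all 4 libraries, and sedentary replicate 1 has the flattest line for Malat1.

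Ribosomal protein transcripts were lower almost throughout. Of 48 cytosolic ribosomal protein genes on a chosen list, 45 were lower and 0 higher (median log2 change −0.98, against 0.03 over all tested genes and a background of 19.2% lower), and of 95 tested genes with a ribosomal protein symbol 87 were lower and 0 higher. Summed over the list, the members had 51525, 56928, 63886 and 62030.0 CPM, against 103047, 108114, 97013 and 104050.0 in the low-mitochondrial class, without overlap. Rps7, a protein of the small subunit, had 436, 469, 576 and 543 CPM in the high-mitochondrial barcodes, against 1445, 1487, 1357 and 1452 in the low-mitochondrial barcodes (log2 change -1.50 ± 0.07, adjusted p = 8.3e-16). Rpl15 and Rpl3 of the large subunit averaged 291 ± 48.1 against 906 ± 76.3 and 463 ± 38.7 against 1259 ± 111 CPM in the high- against the low-mitochondrial class (SD, n = 4 libraries each), log2 changes of -1.63 and -1.44. Many ribosomal protein genes have near-identical processed copies, so counts of single members such as Gm8730 (-2.50) may be split or shared with related genes.

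Mammalian ribosomal protein mRNAs typically start with a run of pyrimidines, the 5′ terminal oligopyrimidine tract, through which their translation and stability are controlled together. The annotated start sites are shown because nearly all genes of this list fell. The 30 bases around the start, 15 before it and 15 from it on, are given from RefSeq's GRCm38.p6 promoters on the transcribed strand, with capitals for a run that begins with C within 10 bases of the start and goes on with C or T for at least the next 7 bases. For comparison a nuclear gene of the respiratory chain that fell and 2 genes that were higher stand beside 2 ribosomal protein genes.
Rpl15: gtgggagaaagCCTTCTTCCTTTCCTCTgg
Rps7: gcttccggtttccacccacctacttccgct
Cox5b: ctggtcggggcaggaagcggaagactgacc
Sdc3: cggtggcggcggcggcggcgacgcttcctg
Psap: gtcaagctgcgcccagtttgggcggggccc
These windows are Rpl15 at chr14:18270972-18271001 (minus strand), Rps7 at chr12:28635939-28635968 (minus strand), Cox5b at chr1:36691472-36691501 (plus strand), Sdc3 at chr4:130792522-130792551 (plus strand) and Psap at chr10:60277613-60277642 (plus strand). Of these windows only that of Rpl15 held such a run. Of the ribosomal list, 36 of 48 genes had an entry and 14 of these (38.9%) held a run, against 2549 of 27025 genes of the whole table (9.4%). The share was 12.7% for the 63 nuclear respiratory chain genes with an entry and 8.7% for 23 lysosomal genes. It was 11.2% among 1261 genes called lower and 12.1% among 1216 called higher. A run in these letters is a description of the annotated start and not a measured transcript end.

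Nuclear genes for the mitochondrial respiratory chain were lower. Of 76 genes for subunits of oxidative phosphorylation complexes encoded in the nucleus, 70 were lower and 3 higher (median -0.66). The 3 higher ones were Ndufs1, Sdha and Atp5g3, named after their values were seen. The list summed to 17619, 18259, 19816 and 18104 CPM in the members, against 27445, 27210.2, 26719 and 27321 in the low-mitochondrial barcodes. Cox5b, a subunit of cytochrome c oxidase, had 169, 194, 205 and 178 CPM in the high-mitochondrial barcodes, against 389, 439, 378 and 428 in the low-mitochondrial barcodes (log2 change -1.12 ± 0.08, adjusted p = 1.44e-12). Cox8a of the same complex and Atp5j of ATP synthase changed by -0.98 and -1.35. The mitochondrially encoded subunits of these complexes were part of the rule and are not compared with them. Of 20 genes of mitochondrial biogenesis and turnover 0 were higher and 5 lower (median 0.00), near the 19.2% of all tested genes that were lower, and at matched depth 1 was higher and 0 lower. Pink1, a kinase that marks damaged mitochondria for removal, had 29.3, 22.4, 28.5 and 20.2 CPM in the high-mitochondrial barcodes, against 44.3, 43.6, 46.4 and 38.8 in the low-mitochondrial barcodes (log2 change -0.79 ± 0.17, adjusted p = 0.00035), a call that was lost at matched depth. Ppargc1a, a coactivator of mitochondrial biogenesis, had 0 UMIs in the members.

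Glycolysis and the tricarboxylic acid cycle gave fewer calls, 0 higher and 8 lower of 17 genes and 2 higher and 7 lower of 18 genes (medians −0.27 and −0.23). The background for these and the next counts was 18.0% of all tested genes higher and 19.2% lower. The glycolytic enzyme genes Eno1, Gapdh and Ldha changed by -1.75, -0.87 and -0.89, and Mdh2, the mitochondrial malate dehydrogenase, changed by -0.81. Eno1 averaged 34.8 ± 8.63 against 118 ± 27.1 CPM in the high- against the low-mitochondrial class. Among 15 genes of the actin cytoskeleton 0 were higher and 11 lower. Tmsb10 and Tmsb4x, thymosins that bind actin monomers, changed by -1.89 and -0.80, and Arpc1b, a subunit of the actin-nucleating Arp2/3 complex, by -1.45. Proteasome subunit genes with a Psm symbol were lower in 25 and higher in 4 of 37.

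Lysosomal and uptake genes were a mixed group with a higher sum, beside a background of 18.0% of all tested genes higher and 19.2% lower. Of 30 lysosomal genes 11 were higher and 4 lower (median 0.02). The 11 were Ctsb, Lamp2, Lgmn, Psap, Grn, Glb1, Npc1, Scarb2, Tpp1, Atp6v1b2 and Mcoln1, and the 4 were Ctsh, Ctsz, Hexa and Npc2, listed here whatever the size of their change. Summed, the list stood at 34905, 36067, 31209 and 34000.2 CPM in the members, against 28325, 30146, 27743 and 28459.7 in the low-mitochondrial class. Psap had 6540.3, 6777, 4914 and 6148 CPM in the high-mitochondrial barcodes, against 3716, 4010.3, 3326 and 3651 in the low-mitochondrial barcodes (log2 change 0.72 ± 0.06, adjusted p = 1.3e-11). Lgmn, the lysosomal protease legumain, averaged 4307 ± 299 against 2772 ± 117 CPM (log2 change 0.63 ± 0.06, adjusted p = 2.09e-10), while the cathepsin gene Ctsz averaged 349 ± 33.2 against 549 ± 24.8 (log2 change -0.65 ± 0.07, adjusted p = 1.18e-08). Of 27 tested scavenger, uptake and adhesion receptor genes 12 were higher and 7 lower (median 0.23). Itgal rose to 1228, 1357, 1081 and 1262 CPM in the members, against 655, 714, 639 and 666 in the low-mitochondrial class (log2 change 0.88 ± 0.06, adjusted p = 9.53e-13). Its partner chain gene Itgb2 was among the 7 lower ones, together with Scarb1, Itgax, Clec1b, Fcgr1, Fcgr3 and Fcgr4.

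Iron and lipid genes were mixed, beside a background of 18.0% of all tested genes higher and 19.2% lower. Among 19 tested genes of iron and heme handling 7 were higher and 5 lower, with Hmox1, the iron exporter gene Slc40a1 and the transferrin receptor gene Tfrc among the higher, and both ferritin chains among the lower. Fth1, the ferritin heavy chain, had 3424, 4269, 4310.2 and 4937 CPM in the high-mitochondrial barcodes, against 7003, 8343, 6933 and 8583 in the low-mitochondrial barcodes (log2 change -0.87 ± 0.06, adjusted p = 4.77e-13), and Ftl1 changed by -0.86. Of 26 lipid and cholesterol genes 10 were higher and 5 lower (median 0.16). The cholesterol exporters Abca1 and Abcg1 and the oxysterol receptor gene Nr1h3 were among the higher, and Apoe, Apoc1, Pltp, Scarb1 and Fabp5 were lower. Apoe had 8971, 10182, 10684 and 9988 CPM in the high-mitochondrial barcodes, against 19909.5, 21558, 21451 and 21793 in the low-mitochondrial barcodes (log2 change -1.09 ± 0.06, adjusted p = 8.3e-16), and Apoc1 changed by -0.94. Because Apoe is so abundant, the summed lipid list was lower in the members, 17647 to 19877 against 31657 to 33290.4 CPM, although its median change was positive. The summed iron list was likewise lower, 20328 to 23824 in the members against 26745 to 31738 in the low-mitochondrial class. At matched depth the iron list had 5 higher and 5 lower genes (median −0.06) and the lipid list 7 and 3 (median 0.091).

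MHC class II genes were lower throughout, interferon-stimulated genes often, and complement and macrophage genes were mixed, against a background of 18.0% higher and 19.2% lower. All 8 MHC class II genes were lower (median −0.61), whereas at matched depth 4 were lower and 0 higher (median −0.22). Cd74, the invariant chain that accompanies MHC class II, had 4689, 3103, 3065 and 4852 CPM in the high-mitochondrial barcodes, against 12482, 6957, 6142 and 10385 in the low-mitochondrial barcodes (log2 change -1.17 ± 0.06, adjusted p = 1.43e-15), and H2-Ab1 had 3469.96, 1531, 1709 and 2783 CPM in the high-mitochondrial barcodes, against 5851, 2631, 2331 and 4073 in the low-mitochondrial barcodes (log2 change -0.63 ± 0.06, adjusted p = 1.23e-09), a call that was lost without the library block. In both classes exercise replicate 1 and sedentary replicate 2 were the 2 highest libraries for Cd74 and for H2-Ab1. Of 20 interferon-stimulated genes 10 were lower and 1, Irf1, higher. Ifi27l2a and Ifitm3, an inhibitor of virus entry, changed by -1.16 and -0.97, and Irf7, a transcription factor of the interferon response, by -0.65. Complement genes gave 3 higher, with C6 at 0.54, and 4 lower of 13, with C1qb and C1qc at -0.87 and -0.44, counts not far from that background. Of 25 Kupffer and macrophage genes outside the rule 8 were higher (Csf1r, Cd163, Mrc1, Slc40a1, Nr1h3, Axl, Hpgd and Cd38) and 8 lower (C1qa, C1qb, C1qc, Clec1b, Fcna, Cd68, Pltp and Fabp7). Cd68, a lysosomal glycoprotein used as a macrophage marker, averaged 181 ± 15.8 against 493 ± 19.02 CPM (log2 change -1.44 ± 0.08, adjusted p = 4.11e-15), and Cd207, the C-type lectin langerin, averaged 100.01 ± 28.6 against 339 ± 46.9 (log2 change -1.75 ± 0.10, adjusted p = 3.43e-15).

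Immediate early genes were mostly higher, and other stress genes were mixed. Of 21 immediate early genes 12 were higher and 1 lower (median 0.42, beside the background of 18.0% higher and 19.2% lower). Dusp1, a phosphatase of MAP kinases, had 933, 1232, 1235 and 2760.3 CPM in the high-mitochondrial barcodes, against 652, 723, 907 and 1805 in the low-mitochondrial barcodes (log2 change 0.59 ± 0.07, adjusted p = 1.04e-08). Fosl2, a component of the transcription factor AP-1, and Klf6 changed by 0.93 and 0.57. Sedentary replicate 2 was the highest library for Dusp1 in both classes, and the gene's call was lost without the library block. Of 16 genes of the unfolded protein and integrated stress response 8 were higher and 3 lower: Hsp90b1, a chaperone of the endoplasmic reticulum, changed by 0.82 and the transcription factor Xbp1 by 0.67, while Sdf2l1, another resident of that compartment, changed by -1.09. Heat shock genes gave 1 higher and 5 lower of 11, with the co-chaperones Dnaja1 at -0.65 and Hspe1 at -0.83. Of 26 NF-kB and cytokine genes 8 were higher, among them Nfkbiz (0.62) and the inflammasome sensor gene Nlrp3 (0.57), and 3 lower, among them Il18 (-0.88). The call of Nlrp3 was lost at matched depth. Apoptosis and p53 target genes gave 6 higher and 4 lower of 19, with the pro-apoptotic Bcl2l11 at 0.98 and Bax at -0.77. Antioxidant genes gave 4 higher, with the glutathione reductase gene Gsr at 0.55, and 4 lower of 17, with Gpx4, which reduces lipid peroxides, at -0.69. Gsr also lost its call at matched depth.

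Among the genes with the largest gains, Aatk, a kinase gene, had 76.99, 86.4, 65.05 and 67.4 CPM in the high-mitochondrial barcodes, against 26.5, 34.8, 25.7 and 27.1 in the low-mitochondrial barcodes (log2 change 1.37 ± 0.13, adjusted p = 7.62e-10). BC005537 had 2117, 2618, 2218 and 2452 CPM in the high-mitochondrial barcodes, against 1028, 1187, 1148 and 1072 in the low-mitochondrial barcodes (log2 change 1.08 ± 0.06, adjusted p = 4.11e-15). Pank3, which acts in coenzyme A synthesis, Plekhm2, which links lysosomes to kinesin, Ago4, an Argonaute gene, and Zbtb18, a transcriptional repressor, changed by 1.11, 1.06, 1.15 and 1.25. Of 8 nuclear-retained and long non-coding RNAs, 4 were tested and all 4 were higher, beside 18.0% of all tested genes: Malat1, Neat1, Kcnq1ot1 and Mir142hg. Malat1 had 33449.5, 35865, 23800.2 and 31845 CPM in the high-mitochondrial barcodes, against 24772, 25961, 21848 and 26450.0 in the low-mitochondrial barcodes (log2 change 0.32 ± 0.06, adjusted p = 4.24e-05). The smallest gap between classes for Malat1 was in sedentary replicate 1, and its call was lost among barcodes with no hepatocyte UMI.

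Transcript length followed the direction of change across the whole table. For 8642 of 8652 tested genes a spliced length was taken as the longest annotated transcript. Of 582 genes under 1 kb, 15 (2.58%) were higher and 427 (73.4%) lower, with a median log2 change of −0.67. Of 1150 genes of 6 kb or more, 377 (32.8%) were higher and 32 (2.78%) lower, with a median of 0.29. The classes between them changed stepwise, with medians of −0.32 for 1 to 2 kb, −0.02 for 2 to 3 kb, 0.14 for 3 to 4 kb and 0.22 for 4 to 6 kb. Genes called higher had a median length of 4243.5 bases and genes called lower 1493, against 3054 over all. Spearman's rho between length and change was 0.485 across genes, which share their libraries and are not independent replicates. Within the libraries taken singly, genes under 1 kb had a median change of −0.77, −0.75, −0.55 and −0.63. At matched depth, 349 of 493 genes under 1 kb were still lower and 9 higher.

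**Figure D3:**
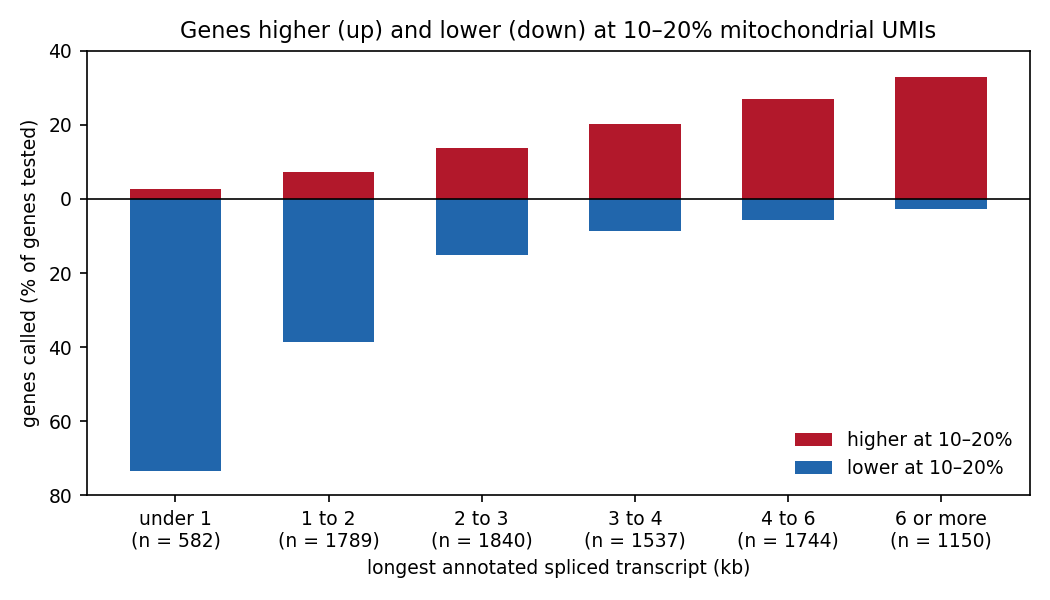
Share of tested genes (y axis, percent) called higher (upward bars) or lower (downward bars) in Kupffer barcodes with 10% to 20% mitochondrial UMIs, by the length of the longest annotated spliced transcript (x axis, kb). The share called lower falls from 73.4% under 1 kb to 2.78% at 6 kb or more, while the share called higher grows from 2.58% to 32.8%.

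Set against genes of the same length decile, some lists kept their place and others stood away from it. The nuclear respiratory chain genes had a median change of −0.66, and genes of like length −0.62. Scavenger and adhesion receptors had 0.23 against 0.22, and lysosomal genes 0.02 against 0.03. Ribosomal protein genes were lower than genes of like length, −0.98 against −0.62, as were the interferon-stimulated genes, −0.30 against −0.04, MHC class II genes, −0.61 against −0.34, and glycolytic genes, −0.27 against 0.03. The 4 tested markers were higher than genes of like length, 0.79 against 0.18. So were immediate early genes, 0.42 against −0.04, and genes of the unfolded protein response, 0.21 against −0.04. The markers and the lists were chosen with earlier results of these data known, so the place of the markers is no independent evidence. The part of transcript length in the changes of these lists was not tested.

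The transcript profile shifted gradually with the mitochondrial share. Barcodes were summed per library in bins of 2.5 percentage points, and the values are means of the 4 libraries in CPM without TMM scaling and with no test. Sdc3 stood at 483 in 394 barcodes under 2.5%, 1718 from 2.5% to 5%, 2684 from 5% to 7.5% and 3375 from 7.5% to 10%, and then at 4202, 4484, 5053 and 5400 in the 4 bins of the members, the last of 170 barcodes. Hmox1 climbed across the same bins to 3450 and Marco to 1467. Ribosomal protein transcripts went the other way, 126198 CPM in the lowest bin, 79885 from 7.5% to 10%, 69176 from 10% to 12.5% and 50227 from 17.5% to 20%. Over the 4 libraries Sdc3 ranged between 403 and 570 CPM under 2.5% and between 5296 and 5560 from 17.5% to 20%. The ribosomal list ranged between 106630 and 135309 CPM under 2.5% and between 46252 and 52682 from 17.5% to 20%. Neither mean showed a step at 10%. MHC class II differed: its sum was 37654 in the lowest bin and 20232 from 2.5% to 5%, but lay between 11236 and 12655 across the members, after 12950 from 7.5% to 10%. Most of the MHC class II difference therefore lay between bins of the low-mitochondrial class. With the low-mitochondrial class restricted to 2.5% to 10%, 7 of 8 MHC class II genes were still lower (median −0.40), and all 4 tested markers were still higher (median 0.71). That restriction was chosen after the data were seen, and the markers were named with results of these data known.

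On either side of the limits of the class the values, again in CPM without TMM scaling, were as follows. Between 10% and 11% (311 barcodes) Sdc3 stood at 4047, Hmox1 at 2476 and the ribosomal list at 71459 CPM, against 3693, 2384 and 73751 between 9% and 10% (426 barcodes). Between 19% and 20% (52 barcodes) they stood at 5738, 2920 and 49504, against 5686, 4585 and 48261 between 20% and 21% (48 barcodes). Sdc3 and the ribosomal list thus lay close on the 2 sides of both limits, and so did Hmox1 at 10%. Hmox1 was higher just above 20% than just below it, in few barcodes. In wider bins the gap was smaller, 3450 CPM from 17.5% to 20% against 3867 in all Kupffer barcodes above 20%. Depth did not follow the share in 1 direction. The median barcode held 1907 UMIs under 2.5%, 4311 UMIs from 2.5% to 5%, 2325 from 7.5% to 10%, 1942 from 10% to 12.5% and 1411.5 from 17.5% to 20%. The hepatocyte list was higher with the share, 342 CPM under 2.5%, 902 from 10% to 12.5%, 1338 from 17.5% to 20% and 2029 above 20%. Clec4f stood at 2666 under 2.5% and at 4177 from 2.5% to 5%, and declined in each later bin to 3320 from 17.5% to 20%.

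**Figure D4:**
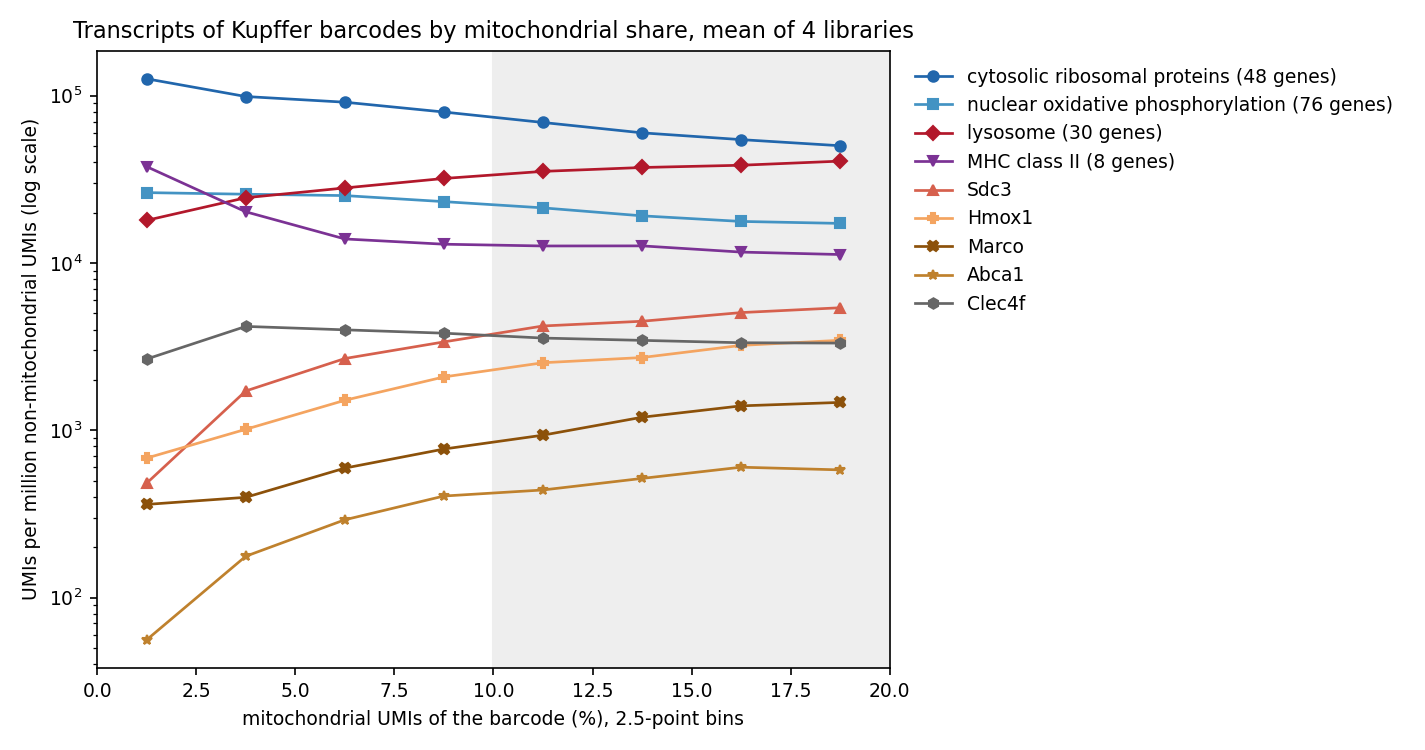
CPM without TMM scaling (y axis, log scale) of 4 gene lists and 5 genes in Kupffer barcodes, as the mean of the 4 libraries. The x axis is the mitochondrial share (percent in bins of 2.5 points), with the range of the members shaded. Ribosomal, respiratory chain and MHC class II transcripts decline and lysosomal transcripts, Sdc3, Hmox1, Marco and Abca1 climb (Abca1 up to 17.5%) without a step at 10%.

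Markers of other cell types were low in the members and differed by type. The counts of calls stand beside 18.0% of all tested genes higher and 19.2% lower. Hepatocyte transcripts were the exception, with 7 of 10 markers higher, 0 lower and a summed level of 326, 208, 2069 and 1105 CPM in the members, against 155, 119, 1622 and 785 in the low-mitochondrial class. Alb, the gene of serum albumin, had 71.5, 35.2, 472 and 275 CPM in the high-mitochondrial barcodes, against 34.3, 21.3, 388 and 192 in the low-mitochondrial barcodes (log2 change 0.49 ± 0.10, adjusted p = 0.000256). Per barcode the hepatocyte UMIs were as many in both classes, as given above, and at matched depth 1 marker was higher. Endothelial markers summed to 370.3 to 670.5 CPM in the members and 536 to 727 in the low-mitochondrial class, with 2 of 14 lower, among them Igfbp7 (-0.70). Erythroid markers ranged widely, from 9.601 to 1145 in the members and from 59.6 to 3706 in the low-mitochondrial class, and 2 of 4 were lower (median −1.09), whereas at matched depth 3 were higher and 0 lower (median 1.38). For Hbb-bs, a beta globin gene, the fall of -1.42 was called, but at matched depth its change was 1.11. Its log2 differences between the classes were 2.69 and −5.05 in exercise and −3.17 and −0.30 in sedentary replicates 1 and 2. The call was lost with DESeq2 and without the library block. The p-values of the class comparison thus need not measure the spread between libraries. Plasmacytoid dendritic cell markers were lower in 5 of 6, among them Klk1 (-2.06), and summed to 429 to 778 against 602 to 919 CPM, of which Bst2, also an interferon-stimulated gene, averaged 518 and 628. At matched depth 1 plasmacytoid marker was lower (list median −0.26, against −1.54 before). Classical monocyte markers were lower in 2 of 3, with Ly6c2 at -1.67, and in 0 at matched depth, and summed to 36.7 to 80.01 against 98.1 to 162.

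The remaining marker lists gave few calls, beside the same background of 18.0% higher and 19.2% lower. The platelet marker Pf4 changed by -0.95, and its list summed to 71.5 to 176 against 132 to 288 CPM. B cell markers (2 of 4 lower) summed to 65.99 to 109 against 114 to 182, T cell markers (0 of 4 called) to 34.8 to 61.97 against 40.6 to 55.1, and natural killer cell markers (0 of 1) to 19.2 to 29.7 against 23.2 to 37.3. Neutrophil markers (0 of 5) summed to 136 to 730.1 against 66.5 to 625, stellate cell or fibroblast markers (0 of 4) to 92.4 to 119 against 73.2 to 173, and cholangiocyte markers, none of them tested, to 0 to 8.001 against 1.46 to 15.2. Patrolling monocyte (0 higher and 2 lower of 3), conventional dendritic cell type 1 (1 and 2 of 4) and type 2 (0 and 2 of 3) markers summed to 510.4 to 577, 709.9 to 796 and 10.998 to 51.2 in the members, against 573 to 672, 697 to 876 and 43.2 to 51.1. Col1a1, Col1a2, Krt19, Sox9, Gp1bb, Gp9, Prf1, Ly6g, Chil3 and Vcan had 0 UMIs in the members. At matched depth 5 endothelial and 2 neutrophil markers were lower, and no marker of either conventional dendritic cell type was called. The part of free RNA or of other cells in the differences between the classes was not tested.

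Exercise against sedentary libraries gave few differences within the members. Of 6685 genes tested among high-mitochondrial barcodes, 20 (0.299%) passed edgeR's quasi-likelihood test at an adjusted p below 0.05, with 3 higher (0.0449%) and 17 lower (0.254%) after exercise. DESeq2 called 3 and 12. At an unadjusted p below 0.05 there were 381 of the 6685 genes. With no effect, a share of about 0.05 of tests falls below that threshold. The groups did not overlap for 34.6% of all genes. All 17 lower genes encode proteins that hepatocytes secrete or that are otherwise typical of hepatocytes: Alb, Apoa1, Apoa2, Ttr, Fgb, Fgg, Hpx, Hp, Gc, Ambp, Itih4, Kng1, Serpina1e, Serpina3k, Mup3, Mup7 and Mup20. Alb had 71.5 and 35.2 CPM in the exercise libraries, against 472 and 275 in the sedentary libraries (log2 change -2.82 ± 0.31, adjusted p = 0.00182), and Mup20, a major urinary protein gene, had 31.2 and 32.003 CPM in the exercise libraries, against 165 and 239.8 in the sedentary libraries (log2 change -2.66 ± 0.26, adjusted p = 0.00104). Apoa1, Serpina3k, Hpx, Fgb and Fgg changed by -2.54, -3.06, -3.60, -4.14 and -4.18. The calls of Fgb and Fgg were lost without sedentary replicate 1, and those of Fgb, Fgg and Hpx with members of 10% to 15%. In each of these 7 genes both sedentary libraries were above both exercise libraries. Of the 10 hepatocyte markers 8 were lower (median −2.53).

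The same hepatocyte difference was present in the low-mitochondrial barcodes. Of 10112 genes tested there, 39 (0.386%) passed, 2 higher (0.0198%) and 37 lower (0.366%) after exercise. Alb had 34.3 and 21.3 CPM in the exercise libraries, against 388 and 192 in the sedentary libraries (log2 change -3.42 ± 0.34, adjusted p = 0.00805) and Mup20 changed by -2.51. A UMI of at least 1 hepatocyte marker was found in 37.6% and 27.3% of the members in the exercise libraries, against 88.7% and 78.99% in the sedentary libraries. In low-mitochondrial barcodes these shares were 34.7% and 28.5% in exercise libraries, against 90.97% and 78.6% in sedentary libraries. Among members without a UMI of the 10 hepatocyte markers, 0 genes were higher and 1 lower. The markers are absent there by choice, and fewer barcodes were summed, above all in the sedentary libraries. Only 1 of the 3 higher and 2 of the 17 lower genes could be tested. This setting therefore cannot show whether the other calls depend on hepatocyte RNA. Neither the interaction test of the exercise effect between the classes nor its DESeq2 version called any of the 7 hepatocyte genes named above.

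The 3 genes higher after exercise in the members were Mmp12, Fabp4 and Rsrp1. Mmp12, the macrophage metalloelastase, had 71.5 and 30.4 CPM in the exercise libraries, against 3.42 and 6.74 in the sedentary libraries (log2 change 3.30 ± 0.55, adjusted p = 0.0191), and its call was lost without exercise replicate 1, which had the highest level. Fabp4, a fatty acid-binding protein of macrophages and adipocytes, had 38.5 and 43.2 CPM in the exercise libraries, against 6.85 and 2.69 in the sedentary libraries (log2 change 3.02 ± 0.46, adjusted p = 0.0133). Both genes were at low levels, and for both the groups did not overlap. Rsrp1, named for its arginine- and serine-rich coiled-coil protein, had 917 and 643 CPM in the exercise libraries, against 365 and 346 in the sedentary libraries (log2 change 1.14 ± 0.17, adjusted p = 0.0133). Its call was lost among members without a hepatocyte UMI, where fewer barcodes were summed. Over all alternatives the change of Rsrp1 stayed between 0.86 and 1.37. In low-mitochondrial barcodes Rsrp1 had 712 and 519.8 CPM in the exercise libraries, against 279 and 252 in the sedentary libraries (log2 change 1.20 ± 0.15, adjusted p = 0.0181), whereas Mmp12 and Fabp4 changed by -0.40 and -0.37 there and did not pass.

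**Figure D5:**
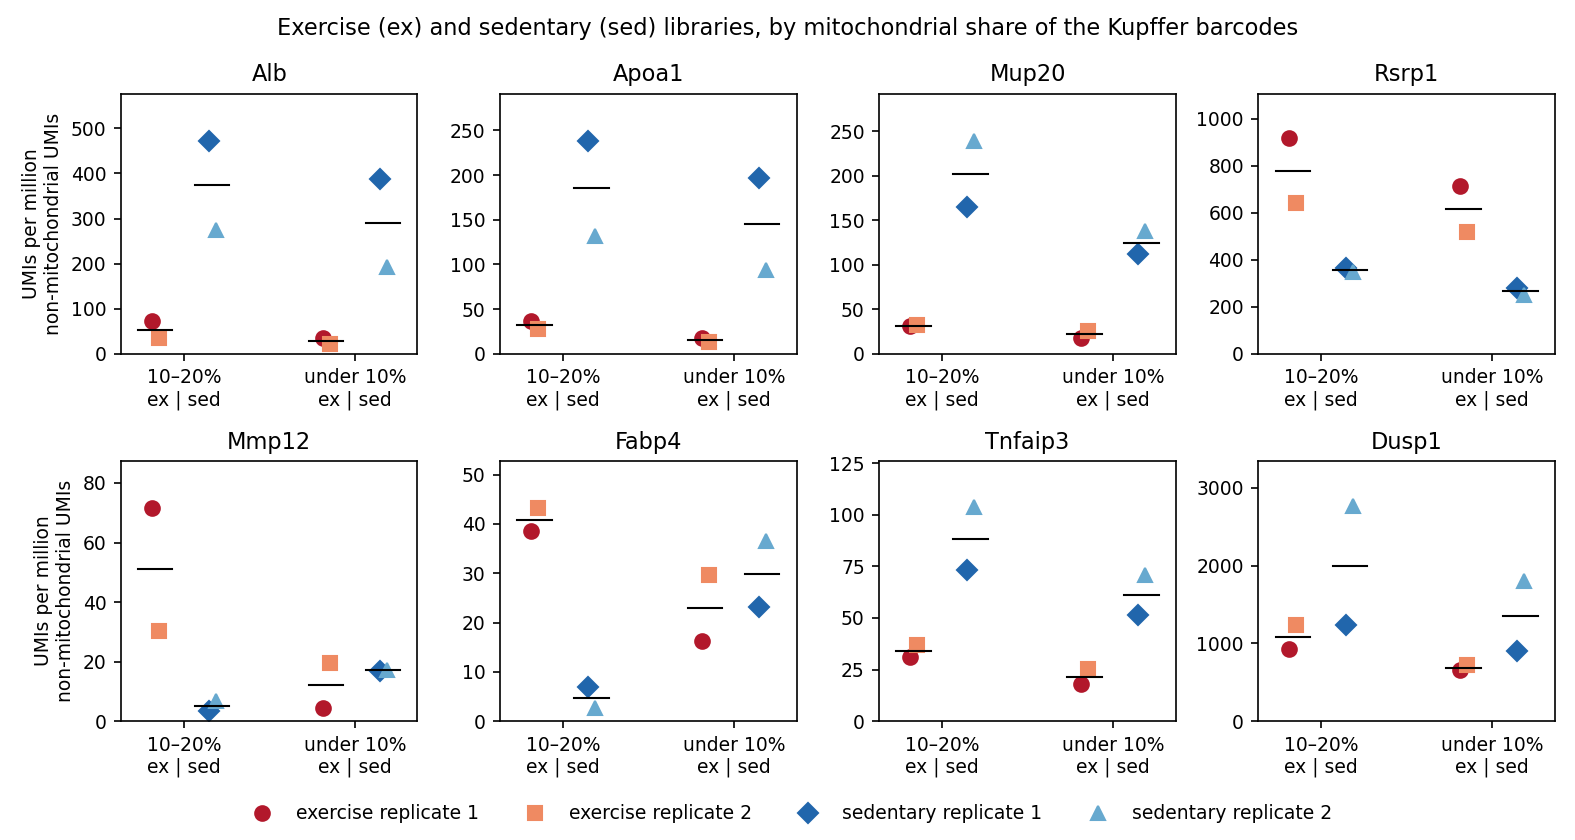
CPM (y axes, TMM-scaled, from 0) of 8 genes in exercise (ex) and sedentary (sed) libraries for Kupffer barcodes with 10% to 20% and under 10% mitochondrial UMIs, with 1 symbol per library and bars for the mean of 2 libraries. Alb, Apoa1 and Mup20 are lower and Rsrp1 higher in exercise libraries in both classes, while Mmp12 and Fabp4 are higher only in the 10% to 20% class. That difference between the classes passed edgeR's interaction test, whereas DESeq2 called 0 genes with a more positive effect. The Fabp4 call was lost among barcodes with no hepatocyte UMI. For Mmp12 the log2 differences between the classes were 3.73 and 0.61 in exercise replicates 1 and 2.

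The gene groups that separated the classes showed hardly any call between exercise and sedentary members. Apart from the hepatocyte list, no list had a called gene except iron and heme handling, 1 of 19 (Hpx, which binds heme in plasma), and lipid handling, 1 of 24 (Fabp4). All 6 markers failed the test: Marco had 1342 and 1008 CPM in the exercise libraries, against 820.5 and 954 in the sedentary libraries (log2 change 0.41 ± 0.16, adjusted p = 0.844), and Vcam1 changed by -0.35, which became 0.26 without sedentary replicate 2. Of 48 ribosomal protein genes 0 passed, 46 had a negative change (median −0.22) and in 33 both exercise libraries lay below both sedentary libraries, beside 34.6% of all genes without overlap in either direction. Rpl6 had 359 and 489.6 CPM in the exercise libraries, against 664 and 567 in the sedentary libraries (log2 change -0.52 ± 0.17, adjusted p = 0.706). Malat1, Psap and Atp5j changed by 0.33, 0.28 and -0.59, all with adjusted p of 0.762 or more. In the low-mitochondrial barcodes the ribosomal list went the other way, again with 0 of 48 genes called. There 44 genes had a positive change (median 0.09), and in 33 both exercise libraries lay above both sedentary libraries. The groups did not overlap for 34.3% of all genes tested in that class.

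No inflammatory or early response gene of the lists passed between exercise and sedentary members. Tnfaip3, an inhibitor of NF-kB signalling, had 31.2 and 36.8 CPM in the exercise libraries, against 73.03 and 104 in the sedentary libraries in the members (log2 change -1.35 ± 0.27, adjusted p = 0.0599). In the low-mitochondrial barcodes it had 18.1 and 25.1 CPM in the exercise libraries, against 51.3 and 70.9 in the sedentary libraries and passed (log2 change -1.50 ± 0.21, adjusted p = 0.0262). Dusp1 had 933 and 1232 CPM in the exercise libraries, against 1235 and 2760.3 in the sedentary libraries (log2 change -0.87 ± 0.27, adjusted p = 0.601), with sedentary replicate 2 far above the other libraries. Of 20 immediate early genes 16 had a negative change, beside 49.5% of all tested genes. Of 25 NF-kB and cytokine genes 14 had one, near that share. Ddit4, a stress-induced inhibitor of mTOR signalling, had 0 and 6.401 CPM in the exercise libraries, against 22.8 and 71.4 in the sedentary libraries (log2 change -3.68 ± 0.80, adjusted p = 0.11). Cxcl10, an interferon-induced chemokine, and Egr2, a transcription factor, had positive changes of 1.42 (adjusted p = 0.1) and 1.51 (adjusted p = 0.541), and Srebf1, a regulator of lipid synthesis, 0.86 (adjusted p = 0.853). Markers of red cells and neutrophils varied by library: Hbb-bs had 114 and 3.2003 CPM in the exercise libraries, against 193 and 346 in the sedentary libraries, and S100a8 had 93.5 and 48.004 CPM in the exercise libraries, against 53.6 and 356 in the sedentary libraries.

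Whether the exercise effect differed between the classes was tested directly with the interaction term and the library as a block. Of 9341 genes tested, 46 (0.492%) passed, 12 with a more positive exercise effect in the members (0.128%) and 34 with a more negative one (0.364%). DESeq2 called 0 and 8. Of the 9341 genes, 617 had an unadjusted p below 0.05, where a share of about 0.05 falls with no effect. For Hbb-bs the fitted SE was 0.22, but the log2 differences between the classes were 2.69 and −5.05 in exercise replicates 1 and 2. For Mmp12 the SE was 0.51, with differences of 3.73 and 0.61 in the same libraries. The p-values of this interaction test therefore do not measure the spread between libraries. Of the 34, 25 had a ribosomal protein symbol, out of 96 such genes tested. Rpl6 stood at 359, 489.6, 664 and 567 CPM in the members, against 1625, 1642, 1465 and 1605 in the low-mitochondrial barcodes (log2 change -0.63 ± 0.11, adjusted p = 6.49e-05), so that its gap between the classes was widest in exercise replicate 1 and narrowest in sedentary replicate 1. The share of the ribosomal list among non-mitochondrial UMIs followed that order, with ratios of high- to low-mitochondrial barcodes of 0.593 and 0.618 in exercise and 0.751 and 0.687 in sedentary replicates 1 and 2. Without exercise replicate 1 or without sedentary replicate 1, 0 of the 34 genes passed. Sedentary replicate 1 also had the shallowest low-mitochondrial barcodes, a median of 2394 UMIs, and its mitochondrial share over all barcodes was the highest of the libraries, 6.19%. The part of depth in this difference was not tested.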

How the data were processed

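For every library the authors deposited a matrix of UMI counts (27998 genes by barcode), whole numbers without normalization. Cell Ranger, with no version named, and Seurat 3.1 on mm10 (GRCm38) are given per the submitters' processing notes. The series text names alignment to a pre-mRNA genome, so intronic reads may be counted. The cell calling and the use of strand are not stated in the sources used here.

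Members were selected by the rule given in the report, and the members and gene lists were chosen with earlier results of these data known. Counts were summed per library and class (8 profiles). Mitochondrial UMIs were left out of library sizes. Testing used edgeR 4.0.16 (R 4.3.3) on genes kept by filterByExpr, with the quasi-likelihood test, TMM scaling and Benjamini-Hochberg adjustment at 0.05. The comparison of classes and the interaction had the library as a block, and exercise against sedentary had no covariate. DESeq2 1.42.0 was an alternative. Only the main edgeR fits were run on simulated counts, which had a common dispersion, no difference between libraries and changes only in genes with many UMIs. That simulation cannot show how the p-values behave for genes at low levels or where libraries differ. The smallest exact p with 2 against 2 libraries is 0.333. Lengths and coordinates came from GENCODE (GRCm38), in which 27645 genes matched by identifier. Doublets were scored against 2 simulated doublets per barcode and left in, and removing 0.8% per 1000 barcodes was an alternative. Log2 differences within a library had a prior count of 2. Spreads are SDs over libraries, and SE belongs to the fitted change.

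Genes were named by rule: up to 12 per direction with the largest called change, at least 20 CPM on average and the same direction in all 4 libraries (or, for exercise, groups that do not overlap, filled up to 5 by smallest p), up to 3 members of each list by smallest p (2 for exercise), the 6 markers, and up to 5 interaction genes per direction. Of these a part is described. Some genes the rule or lists hold are not reported here. Genes listed without a value, Bst2 and the 3 respiratory chain genes that were higher were added after their values were seen. Replicate numbers were not treated as pairs in the main fits.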

Additional observations from a re-analysis of the deposited data

Results flagged for a closer look

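Of 69 genes checked over the 4 libraries, 3 had a library whose change between high- and low-mitochondrial barcodes lay far from the other libraries, where chance picks out about 1 group in 20. For Aatk the log2 difference was 1.51 in exercise replicate 1, against 1.29, 1.31 and 1.28 in the other libraries. For Itgal it was 0.757 in sedentary replicate 1, against 0.906, 0.925 and 0.922, and for Dnaja1 it was −0.512 in the same library, against −0.691, −0.712 and −0.691. All 3 genes kept their direction in every library.

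The interaction test (edgeR's quasi-likelihood test) called the 10 genes named here. As given above, its p-values do not measure the spread between libraries. Mmp12 had an exercise effect larger by 3.71 on the log2 scale in the members (adjusted p = 1.96e-09), with 71.5 and 30.4 CPM in the exercise libraries, against 3.42 and 6.74 in the sedentary libraries among the members and 4.52 and 19.7 CPM in the exercise libraries, against 16.97 and 17.2 in the sedentary libraries among low-mitochondrial barcodes. Its call was lost without exercise replicate 1. Fabp4 followed with 3.37 (adjusted p = 1.43e-08), Dcn, a proteoglycan gene of fibroblasts and stellate cells, with 2.67 (adjusted p = 2.52e-08), Cxcl10 with 2.15 (adjusted p = 1.96e-09) and Hbb-bs with 1.43 (adjusted p = 1.31e-07). Dcn stood at 47.7, 25.6, 11.4 and 24.2 CPM in the members of exercise replicates 1 and 2 and sedentary replicates 1 and 2, against 9.93, 18.4, 25.7 and 68.5 in the low-mitochondrial barcodes, and its call was lost without exercise replicate 1. Cxcl10 stood at 60.5, 70.4, 30.8 and 17.5 in the members, against 36.7, 42.3, 33.1 and 106, where sedentary replicate 2 alone set the low-mitochondrial mean apart; without that library the call was lost. The calls of Fabp4 and Cxcl10 were also lost among barcodes with no hepatocyte UMI. For Hbb-bs the log2 differences between the classes were 2.69 and −5.05 in exercise and −3.17 and −0.30 in sedentary replicates 1 and 2, so the exercise libraries lay on both sides of the sedentary ones and no common difference in exercise effect is shown. It turned its direction without exercise replicate 1 (−3.65) and without sedentary replicate 1 (−0.10).

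The exercise effect was lower in the members for Rpl6 (−0.63, adjusted p = 6.49e-05), Rpl10 (−0.53, adjusted p = 0.000104), Rpl32 (−0.50, adjusted p = 0.00017), Rps23 (−0.45, adjusted p = 0.00193) and Cst3, the protease inhibitor cystatin C (−0.44, adjusted p = 0.00121). All 5 calls were lost without exercise replicate 1 and without sedentary replicate 1. The cause of these differences was not tested, and DESeq2 called 0 genes with a more positive and 8 with a more negative exercise effect in the members.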

How the results depend on the processing

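Of 1099 alternative values for the 69 genes described between the classes, 1079 kept their direction and their call, 19 lost the call and 1 reversed, Hbb-bs with 1.11 at matched depth. For exercise against sedentary members 257 of 297 values kept both and 31 passed where the main fit did not, 7 lost the call, and Vcam1 (−0.80 to 0.26 when each library was left out) and S100a8 (−2.34 to 0.38) reversed without sedentary replicate 2. For the interaction 68 of 95 kept both, 21 lost the call and 6 reversed: Hbb-bs without exercise replicate 1 (−3.65), without sedentary replicate 1 (−0.10; −3.65 to 4.48 over the libraries left out) and without hepatocyte UMIs (−5.13), and in that last setting Rpl10 (0.075), Rpl32 (0.13) and Cst3 (0.27). The cause of the reversals was not tested.

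Between the classes, the 1556 higher and 1665 lower genes became 885 and 1063 with DESeq2, all of them among the main calls, 705 and 1015 with the low-mitochondrial barcodes matched on depth, and 1014 and 1031 in barcodes without hepatocyte UMIs, where fewer barcodes were summed. Leaving out each library gave 1090 to 1451 and 1340 to 1533. All of the main calls tested in those 4 settings kept their sign. At matched depth 1464 of 1474 higher and 1400 of 1420 lower calls did.

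Exercise against sedentary members gave 3 higher and 17 lower genes, 7 and 67 without the filter on low counts, 8 lower with members up to 15%, 0 and 1 without hepatocyte UMIs, and 4 to 12 and 26 to 54 when each library was left out. Where a group then held 1 library, that library was assumed to vary like the other group's. With the replicate number as a block there were 6 and 59. Without hepatocyte UMIs only 1 of the 3 higher and 2 of the 17 lower genes could be tested. The numbers are not shown to pair the libraries, since only 2 pairs exist and same-numbered deviations correlated at 0.10 in the members and 0.28 in the low-mitochondrial class. In low-mitochondrial barcodes the 2 higher and 37 lower genes became 57 lower with DESeq2, 33 and 172 without the filter, 1 and 54 with the replicate block, 0 and 7 without hepatocyte UMIs, and 0 to 4 and 13 to 39 when each library was left out. The interaction gave 12 and 34, 0 and 8 with DESeq2, 7 and 12 without doublets, 2 and 4 without hepatocyte UMIs, and 5 to 11 and 0 to 35 when each library was left out.

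The log2 ratio of median UMIs was −0.82 and became −1.11 against barcodes under 5%, and that of genes was −0.57 and became −0.72. The difference in the share of members between exercise and sedentary libraries stayed between −13.4 and −5.94 percentage points over the alternatives tried. The settings without hepatocyte UMIs for the low class, the classes and the interaction, and the low class of 2.5% to 10%, were chosen after the data were seen. Members held 573525 to 928576 UMIs per library, which limits genes at low levels.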
